A study of Mus musculus with 9 samples.

Results

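ATF4 and the genes of the amino acid response were followed in mouse lung cancer cells that had been kept with T helper cells. The set holds 33 genes, taken as a given list of names and not chosen by a threshold: ATF4 with its partners and feedback genes (8), the stress kinase GCN2 and the eIF2 alpha subunit it acts on (2), serine and one-carbon enzymes (7), other amino acid enzymes (6), amino acid transporters (6) and other known targets (4). The list was drawn up with earlier results of these data known, so counts within the set describe it and are not an independent test. All 33 were listed in both deposited tables, among 18816 genes in the table with Th9 and 18511 in the table with Th17, and all 33 passed the filter for testing in each comparison.

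ATF4 is the transcription factor at the end of the integrated stress response. When uncharged tRNA, misfolded protein or haem shortage activates a kinase of eIF2, general translation slows while the ATF4 mRNA is translated more. ATF4, paired with C/EBP proteins, then switches on genes that make, import and charge amino acids, as well as genes such as Ddit3, Trib3 and Ppp1r15a that limit the response or turn it towards cell death. In tumour cells the pathway is known for feeding serine, asparagine and proline synthesis.

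LLC1 is a line of Lewis lung carcinoma cells from mouse. The cells were cultured for 24 h in direct contact with T cells at a ratio of 1 to 1, and the T cells were Th9, Th17 or Th0 cells, with 3 libraries each (9 in all). The labels describe the T cells as artificially generated and give no genotype, strain or animal age. All groups contained T cells, with Th0 as the control, and LLC1 cells alone were not analysed here. CD4+ cells were sorted away and total RNA of the remaining cells was sequenced, and nothing in the labels says whether the libraries of a group came from separate cultures, which limits what the p-values measure to the spread among these libraries.

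Values are normalized counts in whole numbers. Judging by the steps between them, each is a read count divided by its library's size factor and rounded. Depth was about 13537692 to 14622245 assigned reads in Th9, 13780616 to 17505192 in Th17 and 12718836 to 15338169 in Th0 libraries. Th0 replicate 1 stood apart, since Gm26917 (non-coding), mt-Rnr1 and mt-Rnr2 (both mitochondrial rRNA) took 31.1% of its reads and only 14.9% to 16.6% of those of Th0 replicates 2 and 3. Their share was 16.1% to 18.6% in Th9 and 20.7% to 21.8% in Th17 libraries, so the Th17 libraries also lay above Th0 replicates 2 and 3. Results that rest on Th0 replicate 1 are given without it as well. Of 8 markers of the carcinoma line, only 6 were listed in each deposited table, and all 6 were tested. Krt18, a keratin, had 3031 to 3452 normalized counts in Th9, 3976 to 4083 in Th17 and 3215 to 4636 in Th0 libraries (Th17 values are on the scale of their own table). The epithelial genes Cdh1 and Epcam were not analysed here. T cell transcripts remained in the sorted cells, far more in the Th9 group than in the others, as detailed with the results.

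Contact with Th9 cells went with higher RNA of most of the set. Of the 33 genes, 28 were higher in Th9 than in Th0 and 0 were lower (limma-trend, Benjamini-Hochberg adjusted p under 0.05 over all genes tested; 30 and 0 at an unadjusted p under 0.05). Over the whole table, 13.4% of the 14475 genes tested were called higher and 11.9% lower, 25.2% in all (19.2% and 18.4% at an unadjusted p under 0.05). The median log2 fold change of the 33 genes was 0.81, against -0.011 over all genes tested. In 31 of the 33 genes every Th9 library lay above every Th0 library, which was the case for 21.4% of all genes tested. Without Th0 replicate 1 the count was 29 higher and 0 lower. Fold changes are on the log2(value + 1) scale throughout.

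**Figure D1:**
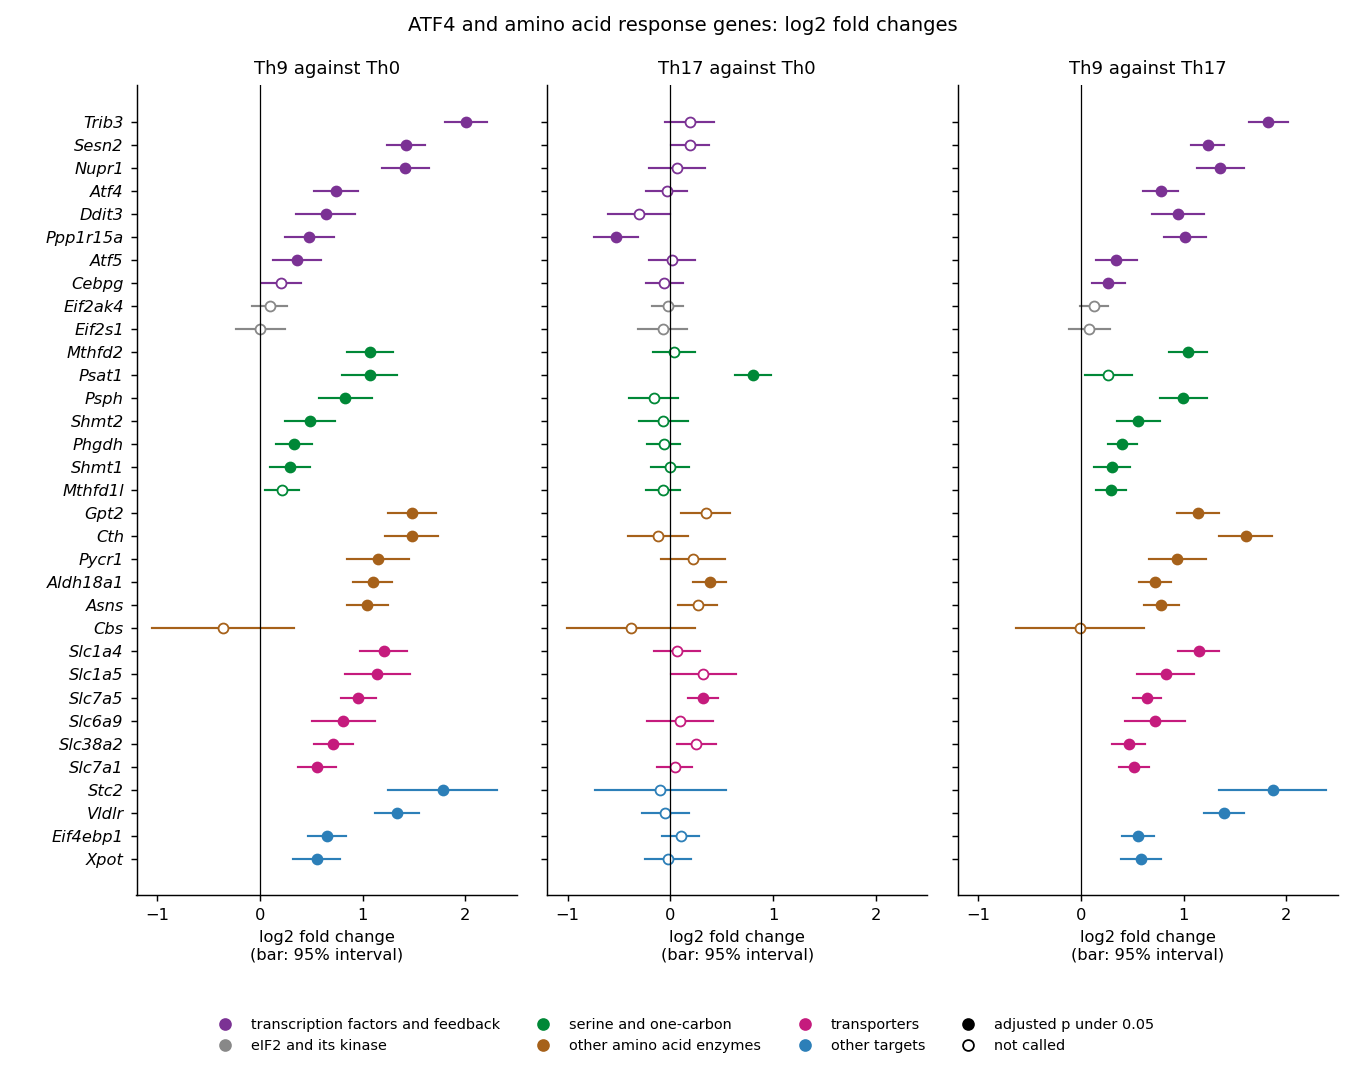
Log2 fold changes (horizontal axis) of the 33 genes in Th9 against Th0, Th17 against Th0 and Th9 against Th17, with 95% intervals as bars; genes are ordered by role and filled points passed an adjusted p of 0.05. In the left panel 28 points are filled and all of these lie right of 0, in the middle panel 4 are filled (3 right and 1 left of 0), and in the right panel 29 are filled, all right of 0.

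Among the transcription factors and feedback genes, 7 of 8 were higher in Th9 (median log2 fold change 0.69). Atf4 itself (chr15:80255184-80257540, plus strand) had 6842, 6909 and 6744 normalized counts in the Th9 libraries, against 3611, 4463 and 4253 in the Th0 libraries. The groups did not overlap, the Th9 libraries lay within a narrow band, and the difference was 0.74 ± 0.10 on the log2 scale (SE, 1.67-fold, adjusted p = 0.000202). Atf4 was also the most abundant gene of the set per length, at 2897 normalized counts per kb of exon in Th9 and 1743 in Th0. Without Th0 replicate 1, its lowest Th0 value, the log2 difference was 0.65.

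The largest fold of the set belonged to Trib3 (chr2:152337422-152344032, minus strand), a pseudokinase that ATF4 induces and that damps ATF4 in turn. It had 777, 768 and 801 normalized counts in Th9 and 179, 199 and 203 in Th0 libraries, a 4.03-fold difference (log2 2.01 ± 0.09, SE, adjusted p = 6.52e-08). Each group was tight, and the gap between them was many times the spread within either. Sesn2, a leucine-binding protein that restrains mTORC1, had 929, 895 and 872 in Th9 against 346, 341 and 316 in Th0 libraries (2.68-fold). Nupr1, a small chromatin protein induced by stress, had 407, 398 and 402 in Th9 against 139, 148 and 164 in Th0 libraries (2.67-fold). For both genes the Th9 libraries differed from each other by far less than they did from Th0.

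Ddit3 encodes CHOP, a factor tied to cell death under lasting stress, and its rise was smaller. It had 449, 428 and 443 normalized counts in Th9 and 356, 248 and 253 in Th0 libraries, where replicate 1 was high (log2 0.64 ± 0.13, SE, adjusted p = 0.00395; 0.81 without that replicate). Ppp1r15a, which encodes GADD34, the phosphatase subunit that resets eIF2, had 1232, 1295 and 1499 in Th9 and 832, 974 and 1081 in Th0 libraries (log2 0.48, adjusted p = 0.00688). The groups of both genes did not overlap. Atf5, a related bZIP factor, had 1026, 930 and 925 in Th9 and 646, 747 and 865 in Th0 libraries (log2 0.36, adjusted p = 0.0275), a call that was lost without any 1 of the Th9 libraries (adjusted p = 0.0651 to 0.136) and without Th0 replicate 2 (0.0581). Cebpg, a dimer partner of ATF4, differed least in this role, with 1175, 1215 and 1238 in Th9 against 956, 1145 and 1048 in Th0 libraries (log2 0.21, adjusted p = 0.100), and passed without Th0 replicate 2 (adjusted p = 0.0449).

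The upstream members of the set differed less. Eif2ak4 encodes GCN2, the eIF2 kinase that senses uncharged tRNA, and had 1075, 1033 and 1110 normalized counts in Th9 against 996, 1014 and 1000 in Th0 libraries (log2 0.10, 95% interval -0.071 to 0.26). Eif2s1, the eIF2 alpha subunit, had 2905, 3043 and 2976 in Th9 against 2457, 3256 and 3268 in Th0 libraries (log2 0.0030, 95% interval -0.23 to 0.24). The Eif2s1 groups overlapped, and its estimate was -0.13 without Th0 replicate 1. GCN2 activity and eIF2 phosphorylation are not read by RNA levels.

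**Figure D2:**
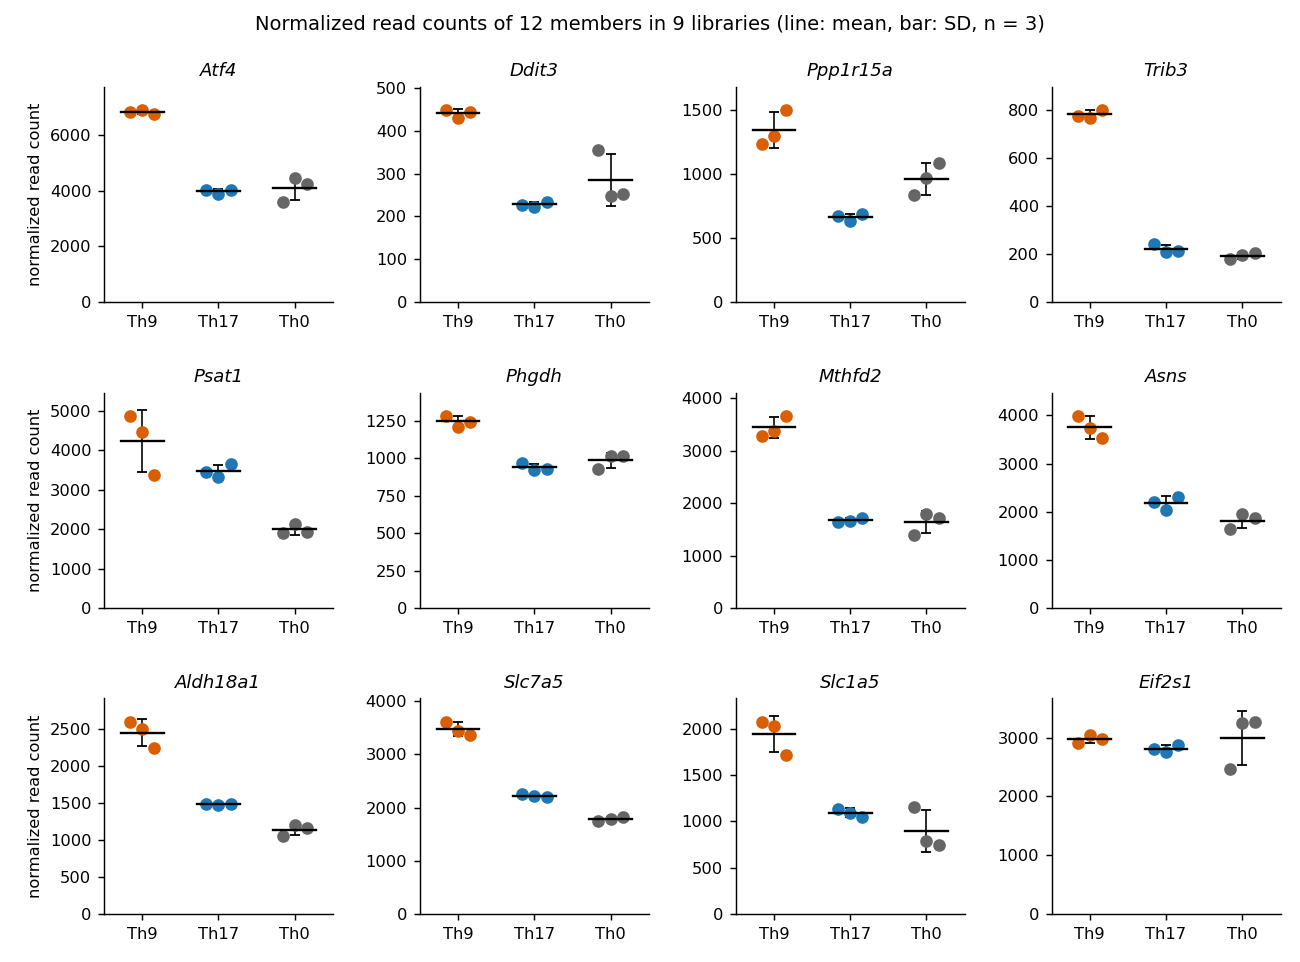
Normalized counts (vertical axes, each starting at 0) of 12 genes of the set in the 9 libraries on 1 common scale: points are libraries, lines are means and bars are SD (n = 3 per group). Trib3 lies at 768 to 803 in Th9 against 207 to 242 in Th17 and 179 to 203 in Th0, whereas Psat1 is high in both Th9 and Th17, and Eif2s1 is at a like level in all groups.

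Serine and one-carbon enzymes were higher in 6 of 7 cases (median log2 fold change 0.49), and the genes differed in size. In the serine branch, Phgdh, Psat1 and Psph encode successive steps from 3-phosphoglycerate to serine. Psat1 (chr19:15904678-15947337, minus strand) had 4877, 4453 and 3364 normalized counts in Th9 and 1900, 2148 and 1933 in Th0 libraries (2.10-fold, log2 1.07 ± 0.12, SE, adjusted p = 7.37e-05). It had the widest spread among Th9 libraries, with replicate 3 the lowest. Psph had 365, 452 and 404 in Th9 and 202, 252 and 231 in Th0 libraries (1.78-fold). Phgdh, the entry step, moved least of the 3, with 1285, 1206 and 1243 in Th9 and 927, 1021 and 1011 in Th0 libraries (1.26-fold, adjusted p = 0.00948), and did not pass without Th9 replicate 1 (adjusted p = 0.0684). A processed pseudogene, Phgdh-ps1, could share reads with Phgdh. An entry named Cct6a, annotated as a processed transcript, covers 10.4% of the Psph exon length on the opposite strand and could share reads with Psph. Values under the symbol Cct6a were far above Psph, with 4364 to 4702 normalized counts in Th9 and 3655 to 4952 in Th0 libraries. They were looked up by symbol, and whether they belong to the overlapping entry was not tested. The Psph values are uncertain to that extent.

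In the folate branch the mitochondrial enzyme Mthfd2 stood out, with 3277, 3377 and 3660 normalized counts in Th9 and 1400, 1803 and 1718 in Th0 libraries (2.10-fold, log2 1.07 ± 0.10, SE, adjusted p = 1.70e-05). Mthfd2 oxidises one-carbon units carried by folate. Shmt2, which moves a carbon of serine onto folate in mitochondria, had 3040, 3019 and 3267 in Th9 and 1838, 2510 and 2357 in Th0 libraries (log2 0.49, adjusted p = 0.00718). Its cytosolic counterpart Shmt1 had 619, 615 and 678 in Th9 and 487, 559 and 513 in Th0 libraries (1.23-fold, adjusted p = 0.0317), and lost its call without Th0 replicate 3 or any 1 Th9 library (adjusted p = 0.0822 to 0.123). Mthfd1l, which releases formate from mitochondria, had 1934, 1918 and 1917 in Th9 and 1616, 1735 and 1620 in Th0 libraries. These did not overlap, yet the difference (log2 0.22) did not pass at an adjusted p of 0.057, and it passed without Th0 replicate 1 (0.0192) or replicate 2 (0.0472).

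Of the other amino acid enzymes, 5 of 6 were higher in Th9 (median log2 fold change 1.13). Asns, asparagine synthetase and the best known gene of the amino acid response, had 3991, 3727 and 3514 normalized counts in Th9 and 1644, 1951 and 1854 in Th0 libraries (2.06-fold, log2 1.04 ± 0.09, SE, adjusted p = 9.09e-06). Proline synthesis runs through Aldh18a1 and Pycr1. Aldh18a1 had 2605, 2500 and 2244 in Th9 and 1061, 1205 and 1160 in Th0 libraries (2.14-fold), and Pycr1 had 299, 309 and 254 in Th9 and 124, 113 and 151 in Th0 libraries (2.22-fold). In these 3 genes no Th9 library came near a Th0 library.

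Larger folds were seen for Gpt2, the mitochondrial alanine transaminase, and Cth, which releases cysteine from cystathionine. Gpt2 had 1366, 1273 and 1311 normalized counts in Th9 and 404, 553 and 466 in Th0 libraries (2.79-fold). Cth had 579, 584 and 689 in Th9 and 198, 256 and 211 in Th0 libraries (2.78-fold). The gene for the step before Cth, Cbs, was hardly present, with 17, 17 and 11 in Th9 and 16, 19 and 23 in Th0 libraries. The Cbs groups overlapped (log2 -0.36, 95% interval -1.05 to 0.33), and at about 2.004 normalized counts per kb in Th9 and 2.58 in Th0 it was the least abundant gene of the set per length.

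All 6 transporters were higher in Th9 (median log2 fold change 0.89). Slc7a5, the LAT1 chain that imports leucine and other large neutral amino acids, had 3615, 3442 and 3359 normalized counts in Th9 and 1752, 1784 and 1819 in Th0 libraries (1.94-fold, log2 0.96 ± 0.08, SE, adjusted p = 5.08e-06). The serine and alanine carrier Slc1a4 had 1170, 1022 and 1061 in Th9 and 409, 473 and 531 in Th0 libraries (2.31-fold). Slc1a5, the main glutamine carrier ASCT2, had 2077, 2029 and 1713 in Th9 and 1154, 787 and 738 in Th0 libraries (2.21-fold). Here Th0 replicate 1 was the high one, and the log2 difference was 1.14 with it and 1.34 without it.

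Slc38a2, or SNAT2, a sodium-coupled carrier of small neutral amino acids, had 4878, 4676 and 4770 normalized counts in Th9 and 2658, 3125 and 2957 in Th0 libraries (1.64-fold). The arginine carrier Slc7a1 differed least of the transporters, with 2562, 2413 and 2473 in Th9 and 1546, 1759 and 1772 in Th0 libraries (1.47-fold). The glycine transporter Slc6a9 had 271, 263 and 216 in Th9 and 136, 124 and 167 in Th0 libraries (1.76-fold). Ccdc24 covers 27.8% of the Slc6a9 exon length on the opposite strand, and no source says if reads were counted by strand. Ccdc24 itself had only 23 to 27 normalized counts in Th9 and 9 to 20 in Th0 libraries. Shorter overlaps on the opposite strand are those of Ddit3 with Mars (3.97% of the exon length of Ddit3), of Atf5 with Nup62 (4.11%) and of Shmt1 with Smcr8 (4.74%). Gm17114 covers 9.94% of the Slc6a9 exon length on the opposite strand. A second entry named Ddit3 covers 6.13% of the Ddit3 exon length on the same strand. Neither of these entries was listed in the deposited tables. Mars had 1894 to 1986 in Th9 and 1421 to 1552 in Th0 libraries, Nup62 had 785 to 827 in Th9 and 669 to 818 in Th0 libraries, and Smcr8 had 816 to 829 in Th9 and 720 to 855 in Th0 libraries. The share of such reads in the values of these genes was not tested.

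The 4 other targets were all higher in Th9 (median log2 fold change 1.00). Stc2, which encodes the secreted glycoprotein stanniocalcin 2, was low but well separated, with 90, 99 and 96 normalized counts in Th9 and 30, 18 and 36 in Th0 libraries (3.43-fold, log2 1.78 ± 0.24, SE, adjusted p = 0.00025). Vldlr, a lipoprotein receptor, had 511, 475 and 534 in Th9 and 190, 209 and 200 in Th0 libraries (2.53-fold). Eif4ebp1, the inhibitor of cap-binding eIF4E, had 1385, 1421 and 1419 in Th9 and 835, 986 and 868 in Th0 libraries (1.57-fold). Xpot, the tRNA export factor, had 2107, 1997 and 2228 in Th9 and 1213, 1509 and 1617 in Th0 libraries (1.47-fold). In none of the 4 did a Th9 library fall among the Th0 libraries.

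The promoters of the set were read for the core letters of the C/EBP-ATF response element, the site that ATF4 and C/EBP proteins bind together. RefSeq promoter windows of GRCm38.p6, from 250 bases before to 50 bases after each start, were found for 29 of the 33 genes (36 windows). The letters TGATGNAA, on either strand, stood in 6 of the 36 windows (16.7%), those of Trib3, Nupr1, Vldlr, Slc1a4, Pycr1 and Asns, against 3.97% of all 32851 windows of the same length and 2.32% of the 14282 windows of genes listed in the table with Th9. The set was put together as ATF4 and amino acid response genes, so this share describes the choice of genes and is not an independent test. All 6 genes were called higher in Th9, with log2 fold changes from 1.04 to 2.01, and so were 18 of the 23 genes whose windows lack these letters, among them Stc2 (1.78), Gpt2 (1.48) and Sesn2 (1.42). The windows of the 4 with the largest fold changes are shown as an example, in the direction of the gene, with the matched letters in capitals. They lie at chr2:152344011-152344310 (minus strand, Trib3), chr7:126625421-126625720 (minus strand, Nupr1), chr19:27216770-27217069 (plus strand, Vldlr) and chr11:20332664-20332963 (minus strand, Slc1a4).
Trib3: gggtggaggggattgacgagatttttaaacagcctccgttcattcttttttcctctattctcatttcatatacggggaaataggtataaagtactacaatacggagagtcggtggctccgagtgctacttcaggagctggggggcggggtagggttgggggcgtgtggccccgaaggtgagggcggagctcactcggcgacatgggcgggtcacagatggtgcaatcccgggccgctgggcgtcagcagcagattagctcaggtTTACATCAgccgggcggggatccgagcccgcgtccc
Nupr1: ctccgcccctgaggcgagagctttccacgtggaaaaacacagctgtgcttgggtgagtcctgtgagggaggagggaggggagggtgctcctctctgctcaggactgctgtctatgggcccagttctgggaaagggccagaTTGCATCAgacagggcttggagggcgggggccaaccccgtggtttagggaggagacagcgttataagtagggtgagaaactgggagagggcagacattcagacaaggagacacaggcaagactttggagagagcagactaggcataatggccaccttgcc
Vldlr: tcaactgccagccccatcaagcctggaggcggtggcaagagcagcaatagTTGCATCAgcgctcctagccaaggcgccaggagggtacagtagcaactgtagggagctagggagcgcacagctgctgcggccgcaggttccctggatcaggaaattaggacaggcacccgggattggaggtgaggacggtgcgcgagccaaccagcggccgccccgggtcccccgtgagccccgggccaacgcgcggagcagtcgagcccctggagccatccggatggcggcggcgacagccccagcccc
Slc1a4: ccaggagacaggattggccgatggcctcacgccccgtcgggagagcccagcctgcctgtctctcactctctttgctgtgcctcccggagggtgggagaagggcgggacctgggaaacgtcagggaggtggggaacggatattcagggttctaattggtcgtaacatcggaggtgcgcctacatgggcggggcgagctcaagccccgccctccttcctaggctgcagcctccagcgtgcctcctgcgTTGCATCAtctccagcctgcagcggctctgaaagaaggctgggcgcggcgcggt
In each of the 4 the match reads TTGCATCA or TTACATCA, which is the element on the opposite strand. It begins 110 bases before the start in Nupr1, 200 before it in Vldlr and 4 before it in Slc1a4, and 14 bases after it in Trib3. The matches describe letters in these windows and not binding, which was not measured.

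Contact with Th17 cells went with few calls, in the set and over all genes. Of the 33 genes, 3 were higher in Th17 than in Th0 (Psat1, Aldh18a1 and Slc7a5) and 1 was lower (Ppp1r15a), against 1.19% of the 14342 genes tested that were called higher and 0.39% lower, 1.58% in all. At an unadjusted p under 0.05 (limma-trend), 8 of the 33 were higher and 2 lower, against 9.68% and 8.61% of all genes tested. The median log2 fold change of the 33 genes was 0.018, against -0.0046 over all genes tested. In 8 genes every Th17 library lay above every Th0 library and in 2 below, cases that made up 12.8% and 10.6% of all genes tested. The Th0 libraries are the same as in the comparison with Th9.

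Psat1 was the clear case. It had 3557, 3423 and 3742 normalized counts in Th17 and 1954, 2195 and 1984 in Th0 libraries, a 1.75-fold difference (log2 0.81 ± 0.08, SE, adjusted p = 0.00258), and it passed under every alternative setting and without each library in turn (adjusted p up to 0.0355). Its neighbours in serine synthesis did not pass: Phgdh had 995, 950 and 955 in Th17 and 953, 1043 and 1037 in Th0 libraries (log2 -0.064, 95% interval -0.23 to 0.098), and Psph had 213, 199 and 213 in Th17 and 208, 257 and 237 in Th0 libraries (log2 -0.16, 95% interval -0.40 to 0.079). For both genes the groups overlapped.

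Aldh18a1, the first enzyme of proline synthesis from glutamate, had 1526, 1519 and 1529 normalized counts in Th17 and 1091, 1231 and 1190 in Th0 libraries (log2 0.38, adjusted p = 0.0304). The leucine importer Slc7a5 had 2312, 2279 and 2252 in Th17 and 1802, 1823 and 1867 in Th0 libraries (1.25-fold, adjusted p = 0.0457). Ppp1r15a, in contrast, had 693, 650 and 702 in Th17 and 856, 995 and 1109 in Th0 libraries (log2 -0.53, adjusted p = 0.026). The groups of these 3 genes did not overlap, but the calls were near the threshold. Slc7a5 did not pass when no filter on low values was applied (adjusted p = 0.053), which left 2 genes of the set called higher. Without Th0 replicate 3, or any 1 Th17 library, Psat1 was the only gene of the set called higher and 0 were called lower, with adjusted p from 0.109 to 0.200 for Aldh18a1, from 0.138 to 0.248 for Slc7a5 and from 0.111 to 0.156 for Ppp1r15a. The log2 differences stayed at 0.38 to 0.40, 0.31 to 0.33 and -0.55 to -0.44 for these genes, and 16 to 62 genes were then called in the whole table in place of 226. Without Th0 replicate 2, Slc7a5 (adjusted p = 0.0636) and Ppp1r15a (0.0518) were not called, while Gpt2 was (0.0444).

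Without Th0 replicate 1, the library with the high ribosomal share, 6 genes of the set were higher in Th17 and 3 were lower, while the number of genes called among all genes was 2352 in place of 226. The 6 were Psat1, Aldh18a1, Slc7a5, Asns (log2 0.20, adjusted p = 0.0361), Slc38a2 (log2 0.19, adjusted p = 0.0338) and Slc1a5 (log2 0.52, adjusted p = 0.000111). The 3 were Ppp1r15a, Eif2s1 (log2 -0.21, adjusted p = 0.0103) and Shmt2 (log2 -0.20, adjusted p = 0.0296). With all libraries, Asns had 2250, 2096 and 2372 normalized counts in Th17 and 1691, 1994 and 1903 in Th0 libraries (log2 0.27, adjusted p = 0.141), and Slc1a5 had 1170, 1125 and 1069 in Th17 and 1187, 804 and 757 in Th0 libraries (log2 0.32, adjusted p = 0.267).

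The transcription factors and feedback genes of the set gave 0 higher and 1 lower of 8 in Th17 (median log2 fold change -0.0077). Atf4 had 4142, 4013 and 4143 normalized counts in Th17 and 3714, 4559 and 4364 in Th0 libraries, so the Th17 libraries lay inside the Th0 range (log2 -0.034, 95% interval -0.23 to 0.17). Trib3, the gene with the largest fold in Th9, had 249, 213 and 218 in Th17 and 184, 203 and 209 in Th0 libraries (log2 0.19, 95% interval -0.052 to 0.43, adjusted p = 0.400). Ddit3 had 234, 229 and 239 in Th17 and 367, 253 and 260 in Th0 libraries (log2 -0.30, adjusted p = 0.272), a difference that was -0.13 without the high Th0 replicate 1.

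Th9 and Th17 were also set against each other directly, on the 9 libraries brought to 1 scale by median-ratio factors. Of the 33 genes, 29 were higher in Th9 than in Th17 and 0 were lower (30 and 0 at an unadjusted p under 0.05), against 11% of the 14365 genes tested that were called higher and 9.8% lower, 20.8% in all. The median log2 fold change of the set was 0.72, against -0.013 over all genes tested. The genes that did not pass were Eif2ak4, Eif2s1, Cbs and Psat1. On this scale the set summed to 57593 to 59800 in Th9, 37031 to 38964 in Th17 and 32291 to 37312 in Th0 libraries.

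Trib3 was 3.55-fold higher in Th9 than in Th17 (log2 1.83 ± 0.09, SE, adjusted p = 3.23e-09), Stc2 3.65-fold (adjusted p = 5.54e-05) and Cth 3.04-fold (adjusted p = 2.42e-07). Atf4 had 6849, 6924 and 6763 on the common scale in Th9, against 4033, 3905 and 4039 in Th17 libraries (log2 0.78, adjusted p = 5.64e-06). Ppp1r15a, which was lower in Th17 than in Th0, had 1233, 1298 and 1503 in Th9 and 675, 633 and 684 in Th17 libraries, a log2 difference of 1.01 (adjusted p = 2.69e-06). Each of these genes had no overlap between Th9 and Th17.

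Psat1 was the exception among the enzymes. On the common scale it had 4882, 4463 and 3373 in Th9 and 3463, 3331 and 3648 in Th17 libraries, so the groups overlapped through Th9 replicate 3 (log2 0.27, 95% interval 0.036 to 0.50, adjusted p = 0.0998). Without that library the difference was 0.42 (adjusted p = 0.0041), and without Th0 replicate 1, which enters only through the shared estimate of spread, the adjusted p was 0.0281. Some other calls were lost with fewer libraries, at differences nearly as large. Atf5 (log2 0.35) lost its call without Th9 replicate 1 or Th17 replicate 1 or 2 (0.30 to 0.35, adjusted p = 0.0506 to 0.0861), Shmt1 (log2 0.30) without Th9 replicate 3 or Th17 replicate 2 (0.26 both times, adjusted p = 0.0674 and 0.0816), and Cebpg (log2 0.27) without Th9 replicate 2 or 3 or Th17 replicate 1 or 3 (0.24 to 0.27, adjusted p = 0.0623 to 0.086).

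**Figure D3:**
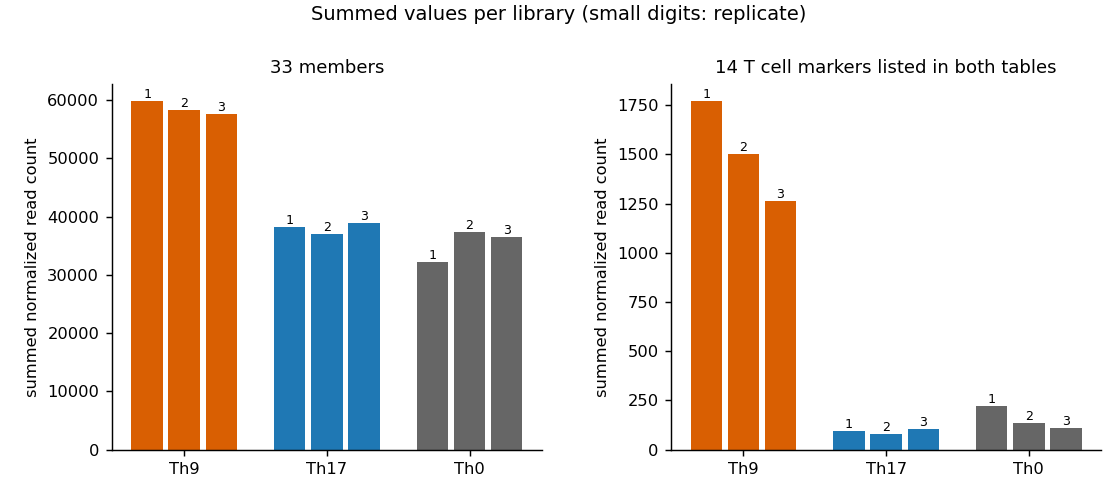
Summed normalized counts per library on the common scale, for the 33 genes (left) and for the 14 T cell markers listed in both tables (right); bars start at 0 and small digits give the replicate. The Th9 bars are highest in both panels. Replicates 1 and 3 of Th9 stand at 1770 and 1263 for the T cell markers and at 59800 and 57593 for the 33 genes. The sum of the 33 genes is also 32291 to 37312 in Th0 libraries, so the replicate differences of the panels cannot be compared.

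T cell transcripts moved with the Th9 comparison. Of 24 T cell markers, 20 were tested, 18 were higher in Th9 than in Th0 and 0 were lower, with a median log2 fold change of 3.94. Their summed normalized counts were 1654 to 2376 in Th9 and 113 to 241 in Th0 libraries, and Cd6, Ubash3a and Trbc1 were at 0 in all Th0 libraries. Cd3g, which encodes the gamma chain of CD3, had 352, 346 and 254 in Th9 and 8, 5 and 2 in Th0 libraries. Cd4, the marker of the sort, had 23, 23 and 17 in Th9 and 10, 8 and 18 in Th0 libraries (adjusted p = 0.114). In bulk RNA, fewer cells of a type and less RNA per cell cannot be told apart.

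Activated T cells are known to use several genes of the set themselves, Slc7a5 and Slc1a5 among them, and the part of T cell RNA in the values of the 33 genes was not tested. Among the Th9 libraries the T cell marker sum in replicate 1 was 1.44 times that in replicate 3. The sum of the 33 genes was 1.04 times as high in replicate 1 as in replicate 3. Much of that sum is a level also present in Th0 libraries (mean 58458 in Th9 and 35365 in Th0). Its ratio therefore cannot be set against that of the markers. The 33 single ratios ran from 0.82 to 1.55 with a median of 1.01, above 1 in 19 genes and at most 1 in 14. Psat1 (4877, 4453 and 3364) and Slc1a5 (2077, 2029 and 1713), among others, fell from replicate 1 to 3, as did the marker sum (2376, 2014 and 1654). In the Th17 comparison 14 of the 24 markers were listed, 5 were tested and 0 were called (limma-trend; 1 lower at an unadjusted p under 0.05), with sums of 82 to 108 in Th17 and 111 to 226 in Th0 libraries, and Cd3g had 0, 1 and 0 in Th17 libraries. Markers of other blood cells (B, myeloid, NK and CD8+ T cells) summed to 172 to 232 in Th9, 133 to 170 in Th17 and 164 to 326 in Th0 libraries, each on the scale of its own table, with 4 of 13 tested and 1 of them, Lyz2, lower in Th9 than in Th0. Markers of the carcinoma line were lower in Th9 than in Th0 for 4 of 6 tested, among them the keratin Krt8, which had 956, 1050 and 1255 in Th9 and 1688, 2470 and 2282 in Th0 libraries. The log2 fold changes of all 6 tested markers lay below 0, from -1.68 to -0.079, with a median of -0.90. Their summed level was 80850 to 85455 in Th9 and 76754 to 109768 in Th0 libraries, and the part of this shift in the results was not tested either.

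Further lists hold genes of neighbouring pathways, and their counts in Th9 against Th0 stand beside 13.4% higher and 11.9% lower over all genes tested. These lists, too, were chosen with earlier results of these data known, so their counts are descriptive. Of 24 tested ATF4 target genes outside the set, 16 were higher and 0 were lower (18 and 0 at an unadjusted p under 0.05; median log2 fold change 0.72). The cystine importer Slc7a11 led them with 2323, 2039 and 2133 normalized counts in Th9 and 270, 328 and 294 in Th0 libraries (7.27-fold). Chac1, which degrades glutathione, had 393, 413 and 392 in Th9 and 67, 45 and 79 in Th0 libraries (6.35-fold). Herpud1, of ER-associated degradation, was 2.48-fold and Slc3a2, the heavy chain that partners Slc7a5 and Slc7a11, 1.90-fold higher. In both of the leading genes the groups were far apart.

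Of 20 other amino acid transporters tested, 9 were higher and 1 was lower (median log2 fold change 0.31). Beside Slc7a11 and Slc3a2 these held Slc7a3, an arginine carrier (2.99-fold), and Slc43a2, a carrier of large neutral amino acids (2.56-fold). Slc7a11, Slc3a2 and Slc7a3 also stand in the list of ATF4 targets. So do Aldh1l2 of the serine and one-carbon list and Ddit4 of the sensing list, and such genes are counted in each list. Of 14 other serine and one-carbon genes, 5 were higher, such as the mitochondrial folate enzyme Aldh1l2 (2.03-fold), and 1 was lower, the thymidylate synthase Tyms. Tyms had 410, 406 and 423 normalized counts in Th9 and 762, 669 and 702 in Th0 libraries (log2 -0.78, adjusted p = 5.81e-05). Of 17 other amino acid enzymes, 3 were higher (Got1, Bcat1 and Ass1, 1.95-, 1.47- and 2.61-fold) and 1, Prodh, which degrades proline, was lower (log2 -0.33); their median of 0.081 and these counts lay within a few genes of the shares over all genes. Without Th9 replicate 1 the higher count was 2 in the serine and one-carbon list, and it was 3 without Th0 replicate 3 or Th9 replicate 2. Prodh was not called without Th0 replicate 3 or any 1 Th9 library, and the lower transporter was not called without Th9 replicate 1 or 2; without Th0 replicate 1, 2 transporters, 2 serine and one-carbon genes and 3 other enzymes were lower.

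Genes upstream of ATF4 and of the parallel stress branches were counted as well. Among 13 eIF2, eIF2B and kinase genes, 3 were higher (Eif2b3, Eif2b2 and the haem-regulated kinase gene Eif2ak1) and 1 was lower, Eif2ak3, which encodes the ER kinase PERK (log2 -0.39, adjusted p = 0.0181), with a median log2 fold change of 0.067. These counts, and those of the sensing genes that follow, lay within a few genes of the shares over all genes. The 3 higher calls were 1 without Th9 replicate 1 or 2, and 2 without replicate 3. Eif2ak3 was not called without Th0 replicate 3 or Th9 replicate 1 or 3, and 3 genes of this list were lower without Th0 replicate 1. Of 20 amino acid sensing and mTORC1 genes, 4 were higher, among them Sesn3 (1.88-fold), Rragd (2.25-fold) and Ddit4 (1.61-fold), and 2 were lower, among them Sesn1 (log2 -0.51), with a median of -0.016. The lower count was 4 without Th0 replicate 1 and 1 without any other library. Of 17 genes of the IRE1 and ATF6 branches of the unfolded protein response, which raise folding capacity in the ER, 1 was higher (Atf6, log2 0.49) and 9 were lower (median log2 fold change -0.29). Manf, a secreted ER stress protein, had 738, 782 and 736 normalized counts in Th9 and 1097, 1150 and 1133 in Th0 libraries (log2 -0.58, adjusted p = 0.00022), and Dnajc3 and Creld2 differed by -0.57 and -0.64. The count of 9 was 5 without Th9 replicate 1 and 6 without Th0 replicate 2 or 3.

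**Figure D4:**
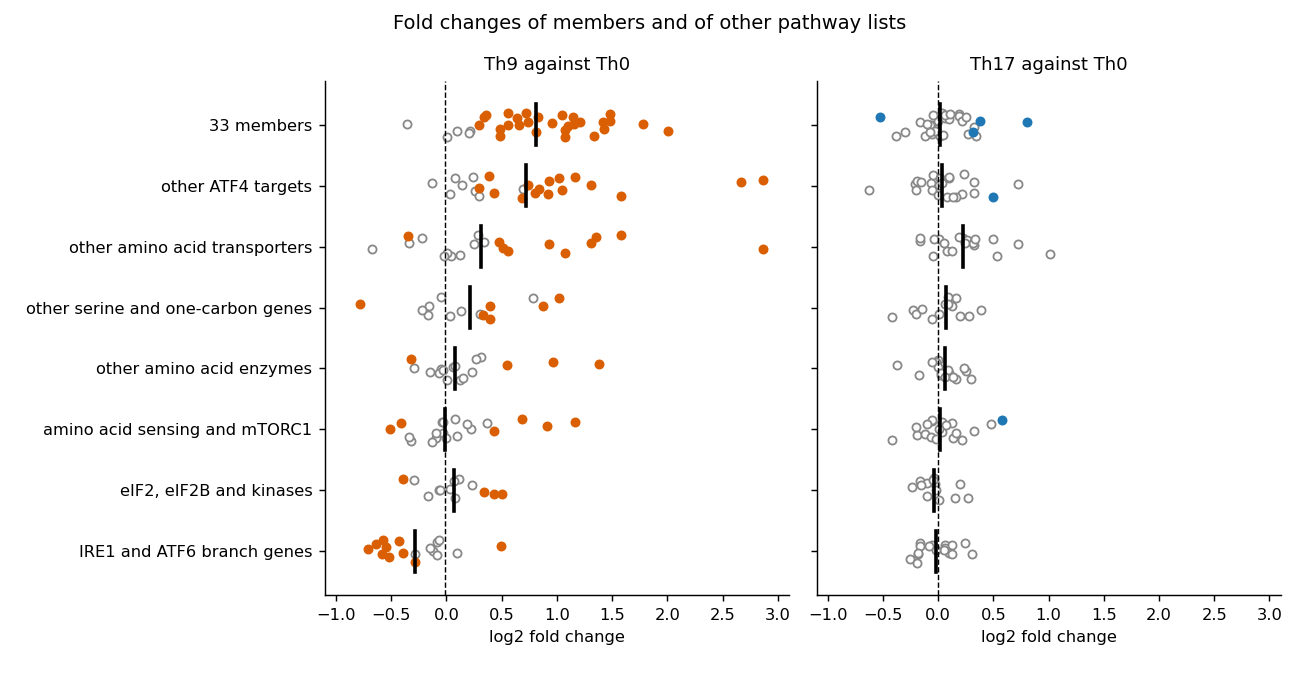
Log2 fold changes (horizontal axis) of the 33 genes and of 7 further lists in Th9 against Th0 and in Th17 against Th0: each point is a gene, coloured points passed an adjusted p of 0.05, open points did not, and black bars are list medians. The dashed line marks the median over all genes tested (-0.011 in Th9 and -0.0046 in Th17). In Th9 the medians are 0.81 for the 33 genes, 0.72 for other ATF4 targets and -0.29 for IRE1 and ATF6 branch genes, while in Th17 all medians lie between -0.037 and 0.23.

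In Th17 against Th0, where 1.58% of all genes tested were called, the 7 lists held 2 calls in all (limma-trend). At an unadjusted p under 0.05 the other transporters had 7 of 19 higher and 0 lower, with up to 4 genes per direction in each further list, against 9.68% higher and 8.61% lower over all genes tested. Herpud1 had 238, 252 and 268 normalized counts in Th17 and 176, 184 and 175 in Th0 libraries (1.41-fold, adjusted p = 0.0356), the only call among 23 ATF4 targets tested. Eif4ebp2, a translation inhibitor under mTORC1, had 570, 507 and 522 in Th17 and 343, 400 and 331 in Th0 libraries (1.49-fold, adjusted p = 0.0164), the only call among 20 sensing genes. Neither gene's list held a call without Th0 replicate 3 or without any 1 Th17 library. Slc7a11 had 392, 369 and 386 in Th17 and 278, 336 and 302 in Th0 libraries (log2 0.33, adjusted p = 0.115). Without Th0 replicate 1, 6 of 19 other transporters were higher, other ATF4 targets gave 3 higher and 5 lower, and IRE1 and ATF6 branch genes gave 2 higher and 5 lower.

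Set directly against Th17, Th9 had 18 of 24 other ATF4 targets higher and 1 lower, led by Chac1 (6.23-fold, adjusted p = 8.23e-08) and Slc7a11 (5.81-fold, adjusted p = 4.46e-11). Of 17 IRE1 and ATF6 branch genes, 1 was higher and 9 were lower in Th9, with Dnajc3, a chaperone cofactor that inhibits eIF2 kinases, at -0.66 and Manf at -0.49 on the log2 scale. Over all genes tested 11% were higher and 9.8% lower. The remaining lists were mixed: 6 of 19 other transporters were higher and 0 lower, 3 of 14 serine and one-carbon genes higher and 2 lower, 4 of 17 other amino acid enzymes higher and 0 lower, 4 of 20 sensing genes higher and 2 lower, and 2 of 13 eIF2 genes higher and 1 lower. With 1 library left out at a time, 17 to 18 other ATF4 targets were higher and 7 to 13 IRE1 and ATF6 branch genes were lower; the lower counts ran from 1 to 4 for sensing genes, 1 to 3 for serine and one-carbon genes and 0 to 2 for transporters and for eIF2 genes, the highest without Th0 replicate 1. The 1 lower ATF4 target was not called without any 1 Th9 or Th17 library. The 2 higher eIF2 genes were 0 without Th17 replicate 2 or 3 and 1 without Th9 replicate 3, and the 1 higher IRE1 and ATF6 gene was 0 without Th9 replicate 1 or any 1 Th17 library.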

How the data were processed

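RNA of 9 libraries (3 groups of 3, 24 h of coculture) was measured. Per the labels' protocols, RNA was isolated on columns with DNase digestion, and stranded total RNA libraries were made. Per the submitters' processing notes, STAR 2.4.0a, featureCounts 1.4.5-p1 and DESeq2 1.62 were used with mm10 or GRCm38 (roles and order are not given), and no source says if reads were counted by strand. The values the authors deposited, in 2 tables normalized on their own, are scores in whole numbers: judging by their steps, each is a count over the library's size factor, rounded. They are not counts, so no count test was used. The 3 Th0 libraries stand in both tables and differed by 1 factor each (1.03, 1.02 and 1.03), which left 3, 7 and 11 of the 18022 common genes apart by over 1.1. Depth was estimated as value times size factor. Unused columns of sample values numbered 0.

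Each of Th9 and Th17 was compared with Th0 in its own table, and Th9 with Th17 over the 9 libraries on 1 scale, with limma-trend (limma 3.58.1, R 4.3.3) on log2(value + 1), leaving out genes whose mean was under 10. A Benjamini-Hochberg adjusted p under 0.05 over all tested genes was a call. The script was tested on simulated data. Named genes are the 33 members, up to 4 called genes with the smallest adjusted p per further list, and fixed marker genes. The members and lists were chosen with earlier results of these data known. Other pseudocounts, filters, a scaling to equal totals, library weights, a replicate block and leaving out each library were tried.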

Additional observations from a re-analysis of the deposited data

How the results depend on the processing

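In Th9 against Th0, 25 to 30 of the 33 genes were called higher and 0 lower under every alternative run, and in Th9 against Th17 27 to 30 and 0. Psat1 passed in Th17 against Th0 throughout. The cause was not tested for any of the values that follow. With library weights, Th9 against Th0 had 6628 genes called (3302 higher, 3326 lower), Th17 against Th0 3361 (1572 and 1789; of the 33 genes 8 and 2), and Th9 against Th17 4977 (2490 and 2487). In the further lists of Th17 against Th0, the weights gave 3 ATF4 targets higher and 4 lower, and 7 other transporters higher. They gave 3 serine and one-carbon genes higher and 1 lower, and 2 IRE1 and ATF6 genes higher and 6 lower. In each direction they gave 3 sensing genes, 2 eIF2 genes and 1 other enzyme. With equal totals without the 3 RNA genes, Th17 against Th0 had 447 (345 and 102; of the 33 genes 5 higher). The other amino acid enzymes in Th9 against Th0 were then 6 higher and 0 lower, in place of 3 and 1. With library weights they were 5 higher and 2 lower. Directions turned with library weights for Eif2s1 (-0.11) in Th9 against Th0, for the median of the 33 genes (-0.051), Atf5 (-0.12), Mthfd2 (-0.031), Slc7a1 (-0.015), Slc1a4 (-0.051), Slc6a9 (-0.057) and Nupr1 (-0.011) in Th17 against Th0, and for Cbs (0.066) in Th9 against Th17. With equal totals they turned for Shmt1 in Th17 against Th0 (0.018) and Cbs in Th9 against Th17 (0.0087). Leaving out 1 library gave 1853 to 5336 called genes in Th9 against Th0 (1015 to 2594 higher, 838 to 2742 lower), 16 to 2352 in Th17 against Th0 (14 to 974 higher, 2 to 1378 lower; of the 33 genes 1 to 6 higher, 0 to 3 lower) and 1985 to 4537 in Th9 against Th17 (877 to 2242 lower), the highest each time without Th0 replicate 1. Log2 differences then crossed 0 for Eif2s1 in Th9 against Th0 (-0.13 to 0.072) and Cbs in Th9 against Th17 (-0.11 to 0.19). In Th17 against Th0 they crossed 0 for the median of the 33 genes (-0.029 to 0.078), Atf4 (-0.12 to 0.026), Atf5 (-0.085 to 0.12), Cebpg (-0.12 to 0.0052), Mthfd2 (-0.072 to 0.11), Nupr1 (-0.0042 to 0.14), Shmt1 (-0.048 to 0.046), Shmt2 (-0.20 to 0.019), Slc1a4 (-0.029 to 0.16), Slc6a9 (-0.0017 to 0.22), Slc7a1 (-0.019 to 0.078), Stc2 (-0.37 to 0.096), Vldlr (-0.085 to 0.0068) and Xpot (-0.14 to 0.062). Same-numbered libraries correlated at 0.11, -0.011 and 0.15 (Th9 and Th0), -0.055, -0.079 and 0.039 (Th17 and Th0) and -0.034, -0.14 and 0.028 (Th9 and Th17) in their deviations from the group means, so nothing shows that the numbers pair the samples. With a replicate block the counts were 4076, 262 and 2864 called genes, and 28, 2 and 29 of the 33 genes higher, Slc7a5 in Th17 being the call lost among these (adjusted p = 0.0999). In the further lists the block left 0 ATF4 targets higher in Th17 against Th0 (Herpud1 lost) and 0 lower in Th9 against Th17, where it gave 1 other enzyme and 1 sensing gene lower, and in Th9 against Th0 it gave 2 eIF2 genes and 2 other enzymes lower. Genes at low values, such as Cbs and Stc2, are limited by depth.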
